A study of Mus musculus with 2 samples.

Results

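The CXC and CX3C chemokines of cultured mouse cardiac myofibroblasts were followed after knockdown of *Vgll3*, a transcription cofactor gene. The group holds 9 genes, *Cxcl1*, *Cxcl2*, *Cxcl3*, *Cxcl5*, *Cxcl10*, *Cxcl12*, *Cxcl14*, *Cxcl16* and *Cx3cl1*, of 24532 genes in the count table. They were matched by gene symbol, and were picked on measured values, because the levels of some were higher and of others lower in this very comparison. All directions below are therefore a description and were not tested. Cardiac myofibroblasts, the collagen-producing cells of the injured heart, came from C57BL/6 mice, as the labels name the strain, 3 days after myocardial infarction. The study's methods name C57BL/6J for work on isolated myofibroblasts and male mice 8 to 10 weeks old for the infarct model. Per the study's methods they are the CD45-negative cells that attached to plastic, and how many animals went into each culture is not given in the sources used here. Both cultures were kept in DMEM with foetal bovine serum and were transfected with 12.5 nM siRNA by Lipofectamine RNAiMAX, either a control siRNA (siCtrl) or 1 siRNA against *Vgll3* (si*Vgll3*). Poly(A) RNA was sequenced 72 h later, from 1 library per condition. No difference below could be checked in replicates, and none carries a p-value. With 1 siRNA and 1 culture per arm, loss of *Vgll3*, other targets of that siRNA and a difference between cultures cannot be told apart.

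Chemokines are small proteins that guide leukocytes along gradients by binding G protein-coupled receptors, and their classes are named after the residues between the first pair of conserved cysteines. CXC ligands with a glutamate-leucine-arginine (ELR) motif before these cysteines attract neutrophils through CXCR2, while ligands without it serve other receptors and cells. In the infarcted heart, stromal cells are one known source of the chemokines that draw in neutrophils, monocytes and lymphocytes.

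The coding sequences set the members apart at this motif, and are shown because the members called higher in si*Vgll3* all carry it. *Cxcl2*, which also carries it, had 0 reads in si*Vgll3* against 11 in siCtrl. Translation of the GENCODE vM21 transcripts placed 1 residue between the cysteines in 8 members and 3 residues in *Cx3cl1*, as their class names say. Of the 9 members, 4 had the ELR codons and 5 did not. Each stretch below runs 5′ to 3′ on the coding strand, with the 3 codons before the first of these cysteines in capitals.

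Cxcl1: aatGAGCTGCGCtgtcagtgcctg
Cxcl2: agtGAACTGCGCtgtcaatgcctg
Cxcl3: agtGAGCTGCGCtgtcagtgcctg
Cxcl5: acgGAGCTGCGTtgtgtttgctta
Cxcl10: aggACGGTCCGCtgcaactgcatc
Cxcl12: ctgAGCTACCGAtgcccctgccgg
Cxcl14: gacGGGTCCAAGtgtaagtgttcc
Cxcl16: gtcGCTGGAAGTtgttcttgtgat
Cx3cl1: ggcATGACGAAAtgcgaaatcatgtgcgac

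The first 4 lines carry the ELR codons and the last 5 carry other codons in the same place. The encoded precursors ranged from 96 residues for CXCL1 to 395 for CX3CL1, and CXCL16, at 246 residues, was the next longest. These last 2 are the members made as transmembrane proteins.

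Reads assigned to genes numbered 125789276 for si*Vgll3* against 140815237 for siCtrl. The deposited TPM (transcript abundance scaled for gene length and library size) is the level used throughout. M is the log2 ratio of si*Vgll3* TPM to siCtrl TPM, and A is log2 of the mean TPM of both libraries. Genes were called higher at M > 0.5 and lower at M < −0.5, each with A > 0. The range in square brackets after M is its 95% Clopper-Pearson counting interval, which covers counting error only, since reads are not independent molecules. The targeted gene *Vgll3* stood at 84.0 TPM after its siRNA against 202 TPM after siCtrl.

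TPM was listed for 8 of the 9 members, and all 8 had A > 0. Of these, 3 were called higher in si*Vgll3* (*Cxcl1*, *Cxcl3* and *Cxcl5*), where 5.73% of the 11754 genes with A > 0 were called higher. Another 2 were called lower (*Cxcl10* and *Cxcl12*), where 11.4% of all genes were called lower. The remaining 3 (*Cxcl14*, *Cxcl16* and *Cx3cl1*) lay within 0.5 of 0 on the M scale. As the members were chosen for going both ways, these counts are not read against the background. In bulk RNA, fewer cells with a transcript and less transcript per cell cannot be told apart.

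**Figure D1:**
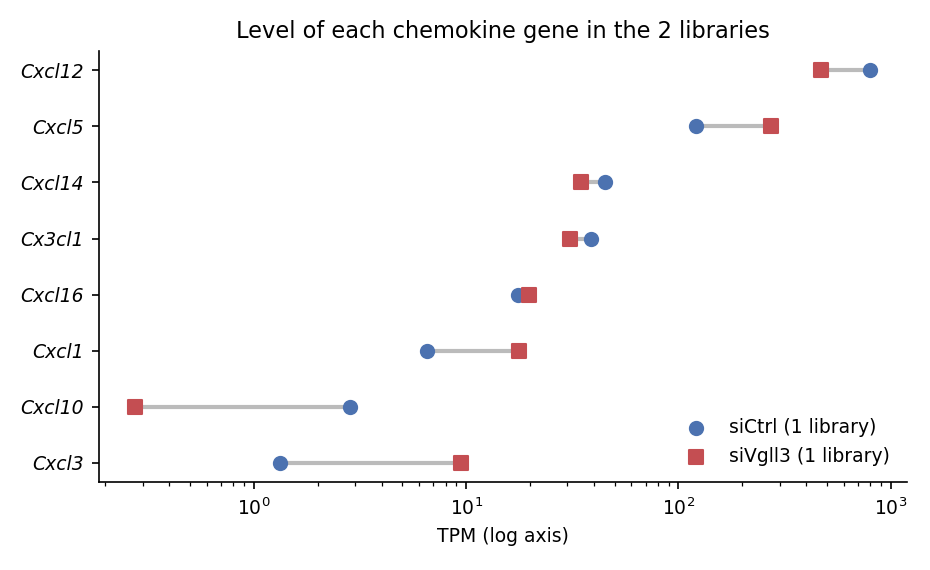
TPM of the 8 chemokine genes with TPM (log axis) in the siCtrl library (circles) and the siVgll3 library (squares), 1 library each, joined by a line per gene. Cxcl12 was the highest in both libraries, at 801 and 468 TPM, and the squares lie to the right of the circles for Cxcl1, Cxcl3, Cxcl5 and Cxcl16.

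The order of levels was *Cxcl12*, *Cxcl5*, *Cxcl14*, *Cx3cl1*, *Cxcl16* and *Cxcl1* in both libraries. The one exchange of places was at the bottom of the order, where *Cxcl10* was above *Cxcl3* in siCtrl and below it in si*Vgll3*. The levels spanned a wide range among the genes with A > 0, from one of the most abundant mRNAs to one of the least abundant. In siCtrl, *Cxcl12* lay above 98.3% of the genes with A > 0 and *Cxcl3* above 2.91% of them. The plot of levels by gene shows that neighbours in the middle of the order, such as *Cxcl14* and *Cx3cl1*, lay close together. In siCtrl, *Cxcl14* was at 45.1 TPM and *Cx3cl1* at 38.6 TPM. With the knockdown they were at 34.7 TPM and 30.7 TPM. Between genes, such gaps have no replicate spread to be set against.

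*Cxcl5*, a neutrophil attractant known from stromal and epithelial cells, was the most abundant of the CXCR2 ligands. Its 26634 si*Vgll3* reads, or 272 TPM, compared with 12778 siCtrl reads, or 120.8 TPM. The si*Vgll3* level was 2.25 times that of siCtrl, with M = 1.17 [1.14, 1.20]. *Cxcl1*, the ligand long known as KC in the mouse, was read 996 times in si*Vgll3* against 396 times in siCtrl. These correspond to 17.8 TPM against 6.53 TPM, with M = 1.44 [1.27, 1.61]. *Cxcl5* was thus 18.5 times as abundant as *Cxcl1* in siCtrl and 15.3 times in si*Vgll3*.

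*Cxcl3*, a close relative of *Cxcl1* and *Cxcl2*, had the highest M of the members. The si*Vgll3* library held 573 of its reads, or 9.51 TPM, against 87 reads, or 1.33 TPM, in the control. This gave M = 2.84 [2.51, 3.18], a 7.15-fold higher level, and an M above that of 99.9% of the genes with A > 0. *Cxcl3* was the least abundant member with TPM in siCtrl and stood above *Cxcl10* in si*Vgll3*.

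*Cxcl2*, the ligand also called MIP-2, went the other way with very few reads. No read of it was found in si*Vgll3* (0 reads), against 11 in siCtrl (exact 95% Poisson interval 5.49 to 19.7), and no TPM is listed for it. With 3 reads taken as the limit that 0 reads allow, *Cxcl2* was 3.28-fold lower in si*Vgll3* relative to library size. This is not a lower bound, since only the counting error of the si*Vgll3* library enters and not that of siCtrl. *Cxcl2* and *Cxcl3* are near-copies of each other, with 89.7% identity between their coding sequences and 82.0% between their proteins. Their transcripts share an unbroken run of 110 identical bases, so reads from this part could have been assigned to either gene. The low count of *Cxcl2* and the counts and M of *Cxcl3* are uncertain to that extent. The longest run that *Cxcl1* shares with either of them is 23 bases, and *Cxcl5* shares at most 12 with any of the other ELR ligands.

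**Figure D2:**
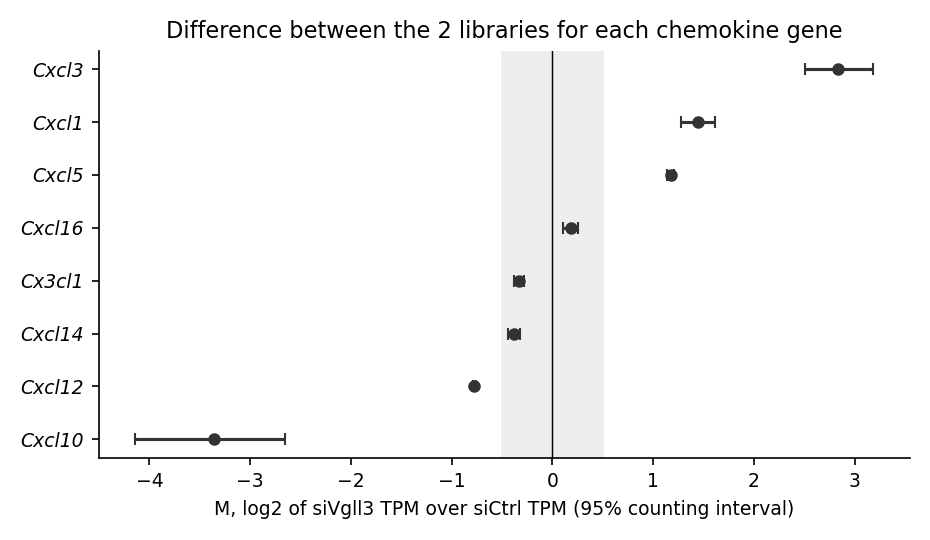
M (log2 of siVgll3 TPM over siCtrl TPM) of the 8 chemokine genes with TPM, with the 95% counting interval as bars and the range within 0.5 of 0 in grey. Cxcl3, Cxcl1 and Cxcl5 lie to the right of the grey band, at 2.84, 1.44 and 1.17, and Cxcl12 and Cxcl10 to its left, at −0.78 and −3.35.

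*Cxcl10* encodes an interferon-inducible attractant of T cells and natural killer cells, which acts through CXCR3. The si*Vgll3* library held 18 of its reads (exact 95% Poisson interval 10.7 to 28.4) against 199 in the control library. At 0.277 TPM against 2.83 TPM, its level was 10.2-fold lower, with M = −3.35 [−4.14, −2.66]. With 1 TPM added to both levels, M was −1.58. The si*Vgll3* level alone was below the 1 TPM that A > 0 asks of the mean, so *Cxcl10* met this filter through the siCtrl library. Under several alternative scalings of the reads it did not meet that filter, and 1 lower member was then left. *Cxcl10* lies on the minus strand inside *Art3*, a gene on the plus strand whose exons share 0 bases with those of *Cxcl10*. *Art3* was read 75 times in si*Vgll3* against 41 times in siCtrl, a difference in the other direction.

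*Cxcl12*, the ligand of CXCR4 and ACKR3 that retains and homes progenitor cells, was the most abundant member in both libraries. Its level was 468 TPM (57300 reads) with the knockdown against 801 TPM (111787 reads) without it. Its M was −0.78 [−0.79, −0.76], a 1.71-fold lower level. Even so, *Cxcl12* lay above 97.2% of the genes with A > 0 in si*Vgll3*. It stood 6.63 times as high as *Cxcl5* in siCtrl and 1.72 times as high in si*Vgll3*.

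The members within the thresholds were of middle abundance. *Cxcl14*, a chemokine without a settled receptor, was read 3741 times in si*Vgll3* against 5259 times in siCtrl, with M = −0.38 [−0.44, −0.32]. *Cx3cl1*, known as fractalkine, is anchored in the membrane by a mucin stalk and binds CX3CR1 on monocytes. Its 5704 si*Vgll3* reads compared with 7753 in siCtrl, for M = −0.33 [−0.38, −0.28]. *Cxcl16*, the membrane-bound ligand of CXCR6, differed least, with 2872 si*Vgll3* reads against 2736 in siCtrl. Its level was 19.8 TPM against 17.5 TPM, for M = 0.18 [0.11, 0.26]. For all 3 genes the counting interval lay wholly on one side of 0 and wholly inside the thresholds. Exons of *Cxcl16* and *Zmynd15*, on opposite strands, share 552 bases, and *Zmynd15* itself was read 82 times in si*Vgll3* against 72 times in siCtrl.

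The 8 members summed to 853 TPM in si*Vgll3* against 1034 TPM in the control. The 3 CXCR2 ligands with TPM (*Cxcl1*, *Cxcl3* and *Cxcl5*) together reached 299 TPM against 128.7 TPM. They made up 35.1% of the sum in si*Vgll3* against 12.4% in siCtrl, and *Cxcl12* made up 54.9% against 77.5%. *Cxcl5* alone made up 11.7% of the sum in siCtrl and 31.9% in si*Vgll3*. The makeup of chemokine mRNA thus differed mainly in its 2 most abundant genes, where the difference (si*Vgll3* minus siCtrl) was −334 TPM for *Cxcl12* and 151 TPM for *Cxcl5*. *Cxcl10*, which had the lowest M, was 0.274% of the sum in siCtrl and 0.0325% in si*Vgll3*.

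**Figure D3:**
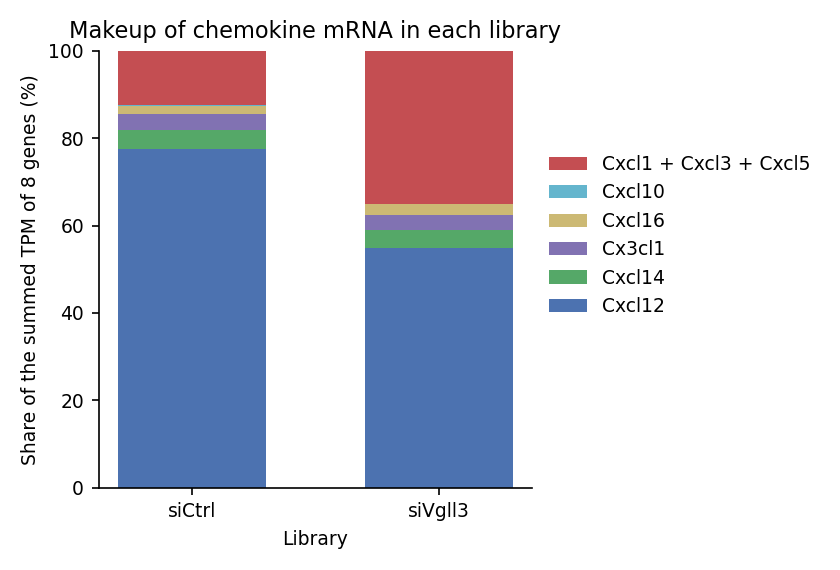
Share of the summed TPM of the 8 chemokine genes taken by each gene (Cxcl1, Cxcl3 and Cxcl5 as one) in the siCtrl and the siVgll3 library. The top segment, the CXCR2 ligands, was 12.4% in siCtrl and 35.1% in siVgll3, and the bottom segment, Cxcl12, was 77.5% and 54.9%.

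The ELR ligands lie next to each other in the genome, which the choice of members did not use. On mm10, *Cxcl5* (chr5:90759360-90761624), *Cxcl3* (chr5:90786103-90789600), *Cxcl1* (chr5:90891241-90893115) and *Cxcl2* (chr5:90903871-90905938) are on the plus strand within 147 kb. This interval holds 7 protein-coding genes, which are *Cxcl5*, *Ppbp*, *Pf4*, *Cxcl3*, *Cxcl15*, *Cxcl1* and *Cxcl2* in this order, and all of them encode chemokines. *Ppbp* and *Pf4* are best known as platelet chemokines. *Ppbp*, which also carries the ELR codons, was read 132 times (2.06 TPM) in si*Vgll3* against 17 times (0.232 TPM) in siCtrl, for M = 3.15 [2.42, 3.97]. *Pf4*, which lacks them, was read 607 times (17.5 TPM) against 540 times (14.4 TPM), for M = 0.28 [0.11, 0.45]. *Cxcl15* had 0 reads in both libraries. *Ppbp* was below 1 TPM in siCtrl and met A > 0 through the si*Vgll3* library. The other cluster genes with TPM (*Cxcl5*, *Pf4*, *Cxcl3* and *Cxcl1*) were at a higher TPM in si*Vgll3*, with M from 0.28 to 2.84, and *Cxcl2* had fewer reads there.

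*Cxcl10* (chr5:92346638-92348889) is on the same chromosome but 1.44 Mb beyond *Cxcl2*. *Cxcl12* (chr6:117168535-117181367), *Cxcl14* (chr13:56288643-56296551), *Cxcl16* (chr11:70453983-70459984) and *Cx3cl1* (chr8:94772009-94782427) lie on their own. Outside *Cxcl10* and *Cxcl16*, no member overlaps another annotated gene.

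Promoter sequence is shown for *Cxcl1*, *Cxcl2*, *Cxcl3* and *Cxcl10*, which are textbook targets of NF-κB or interferon. RefSeq promoter windows on GRCm38.p6, from 250 bases before to 50 bases after the start, were matched for 7 of the 9 members, all but *Cxcl5* and *Cxcl16*. The NF-κB consensus was searched on both strands, as were the interferon-stimulated response element GAAANNGAAA, the AP-1 motif TGANTCA, the gamma-interferon-activated site TTCNNNGAA and the TEAD motif GGAATG. Capitals mark matches of the NF-κB, interferon response and AP-1 motifs, each stretch reads 5′ to 3′ on the gene's strand, and overlapping NF-κB matches run together. The first 3 stretches reach from 110 to 31 bases before the start and that of *Cxcl10* from 230 to 61 bases before it.

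Cxcl1 (chr5:90891135-90891214, plus strand): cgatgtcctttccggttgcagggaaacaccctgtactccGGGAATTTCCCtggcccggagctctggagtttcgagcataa
Cxcl2 (chr5:90903789-90903868, plus strand): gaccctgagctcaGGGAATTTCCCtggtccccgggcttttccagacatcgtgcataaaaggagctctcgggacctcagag
Cxcl3 (chr5:90785991-90786070, plus strand): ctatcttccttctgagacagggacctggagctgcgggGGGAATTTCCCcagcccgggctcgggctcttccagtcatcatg
Cxcl10 (chr5:92348950-92349119, minus strand): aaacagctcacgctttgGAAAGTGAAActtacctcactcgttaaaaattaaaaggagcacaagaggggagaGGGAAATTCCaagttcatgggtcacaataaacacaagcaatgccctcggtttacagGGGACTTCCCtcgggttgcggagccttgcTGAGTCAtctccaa

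*Cxcl1*, *Cxcl2* and *Cxcl3* held the same NF-κB word, GGGAATTTCC, which began 71, 97 and 73 bases before the start. That exact word, taken from the *Cxcl1* window, was in the windows of 29 of 27025 genes (0.107%), and the wider consensus was in 5.14% of them. Since the word was picked from a member, its share does not measure how unusual the match is. *Cxcl10* held a pair of other NF-κB matches, at 159 and 103 bases, with an interferon response element at 213 bases and an AP-1 match at 74 bases. The interferon response element was in 3.99% of all windows, and of the members also in that of *Cxcl14*, and the AP-1 motif was in 8.97%. *Cxcl14* alone held a gamma-interferon-activated site, which 9.55% of all windows hold. The motif of the TEAD factors, the DNA-binding partners of VGLL proteins, was in 16.6% of all windows and in 1 of the 7 members' windows, that of *Cxcl3* at 245 bases. *Cxcl12* and *Cx3cl1* had no match to any of these motifs in this window. Matches are descriptions of sequence and were not tested for binding.

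**Figure D4:**
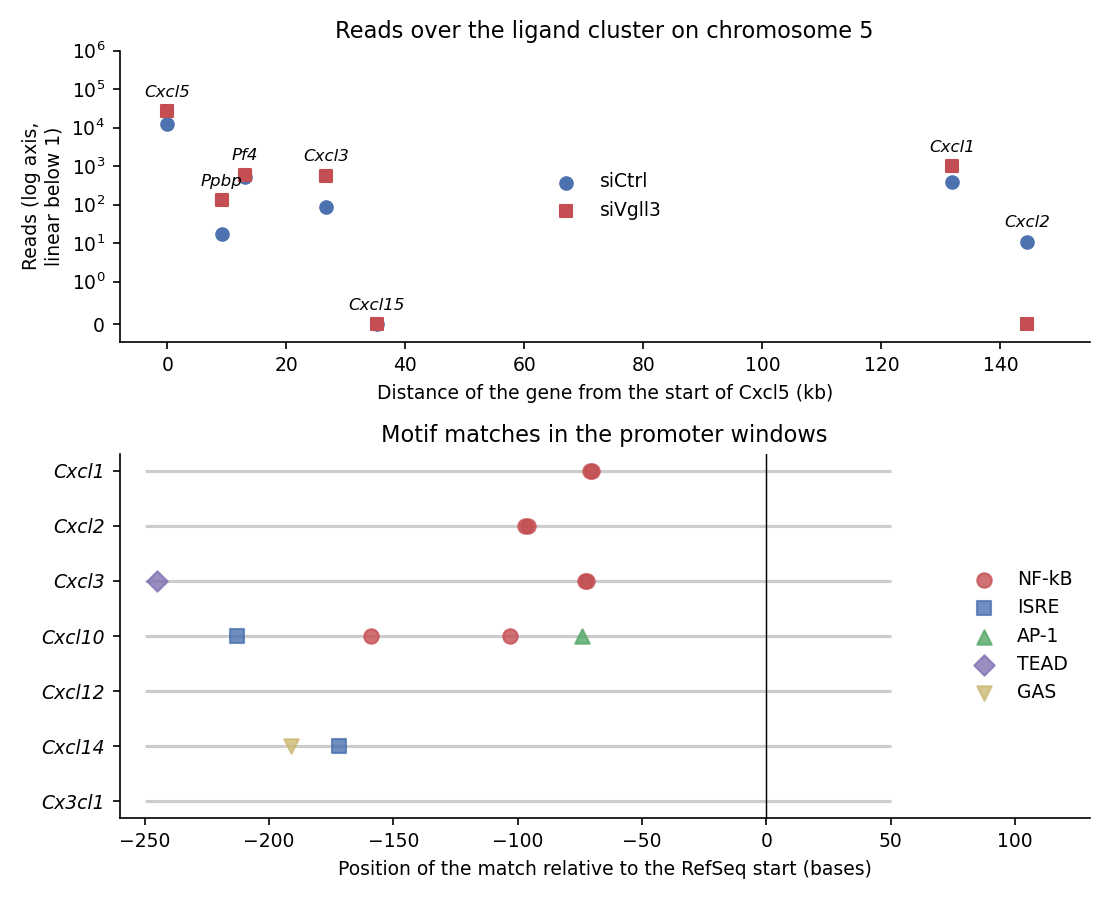
Top, reads of the 7 genes of the ligand cluster in each library (log axis, linear below 1) against distance from the start of Cxcl5 in kb. Bottom, motif matches (first base) against the RefSeq start in the 7 promoter windows, where Cxcl1, Cxcl2 and Cxcl3 each show overlapping NF-kB matches between 97 and 70 bases before the start and Cxcl10 shows an ISRE, the interferon response element, at 213 bases.

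The 3′ UTRs of the members also differed in a feature the choice did not use, the AU-rich pentamer ATTTA, which marks many short-lived cytokine mRNAs. *Cxcl2* held 11 copies and *Cxcl1* held 7, or 14.99 and 11.8 per kb, more than 99.8% and 99.4% of the genes with A > 0 and a 3′ UTR of at least 50 bases. *Cxcl3* and *Cxcl5* held 5 copies each, or 7.75 and 4.50 per kb. The other members ranged from 0 copies in *Cxcl14* to 2.74 per kb in *Cxcl10*, and the median of 10759 genes was 1.32 per kb. The 7-base form TATTTAT was in 6 of the 9 members, with 6 copies in *Cxcl1*, 7 in *Cxcl2* and 2 in *Cxcl3*, and in 28.9% of all these genes. The ELR ligands were thus the members richest in the pentamer, and their copies were not tested against M.

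The receptors for these ligands had few or no reads in the cultures. Of 12 receptors, 6 had 0 reads in both libraries, among them *Cxcr2*, *Cxcr3* and *Cx3cr1*, the receptors of the ELR ligands, of CXCL10 and of fractalkine. A further 3 had at most 9 reads in a library. *Cxcr4* and *Ackr3*, the signalling and the scavenging receptor of CXCL12, were both low and close to level between the libraries. *Cxcr4* stood at 1.09 TPM in si*Vgll3* against 1.03 TPM in siCtrl, for M = 0.08 [−0.30, 0.47]. *Ackr3* stood at 3.09 TPM against 2.90 TPM, for M = 0.09 [−0.12, 0.30]. The one receptor called lower was *Ackr4*, a scavenger of CC chemokines, at 0.649 TPM in si*Vgll3* against 4.14 TPM in siCtrl, for M = −2.67 [−3.03, −2.33]. It was below 1 TPM in si*Vgll3* and met A > 0 through the siCtrl library. Of the other ligands, 4 had 0 reads in both libraries, including *Cxcl9* and *Cxcl11*, the neighbours of *Cxcl10* that share its receptor, and 2 had at most 17 reads in a library.

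Proteases and proteoglycans that act on chemokine proteins were described from lists written with earlier results in view. *Adam10* and *Adam17*, which shed CXCL16 and CX3CL1 from the membrane, were at M of −0.22 and −0.48. *Timp3*, an inhibitor of ADAM17, stood at 1288 TPM in si*Vgll3* against 1200 TPM in siCtrl, and 0 of the 3 listed genes with A > 0 were called. Of 8 heparan sulphate proteoglycan genes, whose chains hold chemokines at the cell surface, 3 were called lower and 0 higher. Over all genes with A > 0, 11.4% were called lower and 5.73% higher. The median M of the 8 was −0.46 beside −0.05 over all genes. The 3 called lower were *Sdc3* at −0.58, *Gpc4* at −0.56 and *Gpc6* at −0.59. The members with the highest mean TPM were *Sdc4*, at −0.44, and *Sdc3*.

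**Figure D5:**
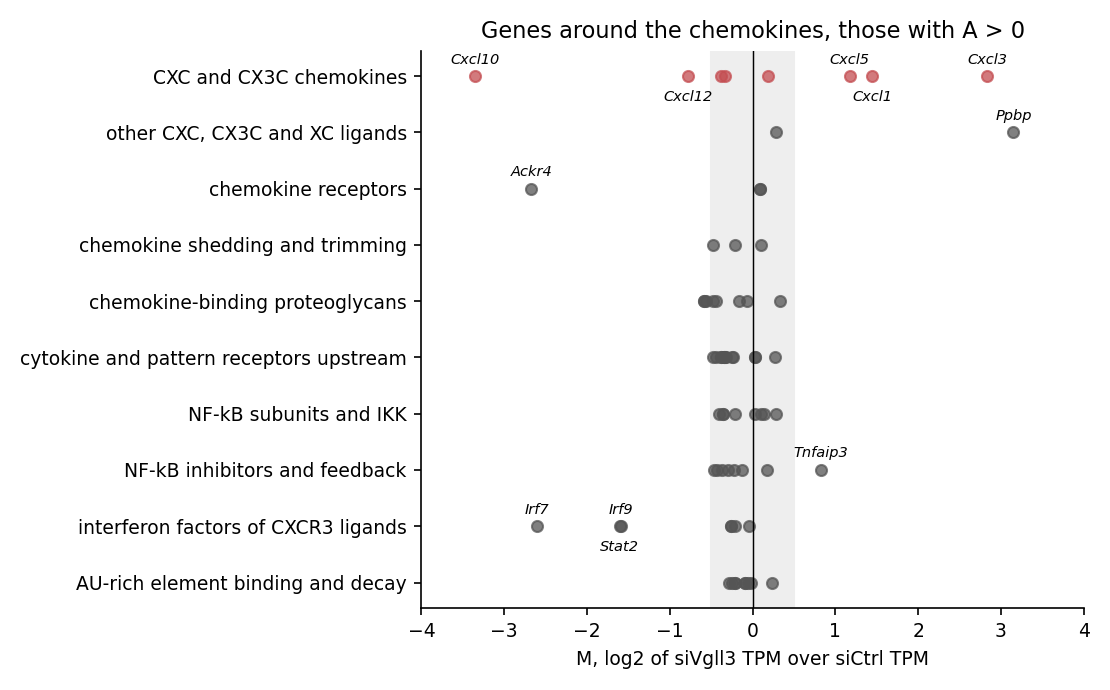
M of the chemokine genes (top line) and of each listed gene around them with A > 0, with the range within 0.5 of 0 in grey and names for genes further than 0.75 from 0. The NF-kB subunits all lie within the grey band, while Irf7, Stat2 and Irf9 lie between −2.61 and −1.59.

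The ELR ligands are classical targets of NF-κB, and the genes of that pathway lay mostly inside the thresholds. None of 8 genes for NF-κB subunits and the IκB kinase was called, with M from −0.41 to 0.28 and a median of −0.09. *Rela* was at 0.03 and *Nfkb1* at −0.22. Of 8 inhibitors and feedback genes, 1 was called higher (5.73% of all genes were) and 0 lower (11.4% were), with a median M of −0.26. This was *Tnfaip3*, which encodes the ubiquitin-editing inhibitor A20 and is itself a target of NF-κB. Its 1495 si*Vgll3* reads (5.72 TPM) compared with 913 in siCtrl (3.24 TPM), for M = 0.82 [0.70, 0.94]. *Nfkbia*, another such target, was at −0.13, and *Nfkbib* at 0.18. Among 13 receptors for IL-1, TNF, IL-17, interferons and microbial products, 0 were called and 10 had M below 0 (median −0.33), with *Tnfrsf1a* at −0.35 and *Il1r1* at −0.35. Of 9 genes that bind or decay AU-rich mRNAs, 0 were called (median M −0.10), and *Zfp36l1* was at −0.21 and *Zfp36l2* at −0.28. These are mRNA levels and do not measure the activity of NF-κB or the decay of mRNAs. The part of either in the levels of the ELR ligands was not tested.

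Some interferon factors that act on *Cxcl10* were lower in the same library. Of 7 listed genes with A > 0, 3 were called lower and 0 higher, and all 7 had M below 0 (median −0.26). Over all genes with A > 0, 11.4% were called lower, 6700 of 11754 had M below 0 and the median was −0.05. *Irf7*, a factor that amplifies interferon responses, stood at 2.57 TPM in si*Vgll3* against 15.6 TPM in siCtrl, for M = −2.61 [−2.79, −2.42]. *Stat2* and *Irf9*, which act in signalling from the type I interferon receptor, were at −1.60 and −1.59. *Irf1*, *Irf3*, *Jak1* and *Jak2* lay within the thresholds, between −0.26 and −0.04. *Irf8* was read 60 times in si*Vgll3* against 58 times in siCtrl, with A below 0. The part of these factors in the level of *Cxcl10* was not tested.

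The label of the cells was checked against marker genes. *Vim*, *Acta2*, *Col1a1* and *Col1a2* stood at 2631 TPM or more in both libraries, and all 13 fibroblast and myofibroblast markers had A > 0. Of these, the contractile *Tagln* and *Cnn1* and the surface marker *Thy1* were called higher, with M of 0.52, 1.13 and 0.72. The collagens *Col1a1*, *Col1a2* and *Col3a1*, with *Postn*, *Pdgfrb* and *Tcf21*, were called lower, with M from −1.22 for *Postn* to −0.53 for *Col1a2*. Over all genes with A > 0, 5.73% were called higher and 11.4% lower. The counts of these and the other marker lists below were not tested against those shares.

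Chemokines are also made by leukocytes, endothelium and mesothelium, and single markers of these cells differed between the libraries in both directions. Of 18 leukocyte markers, 7 were at 0 reads in both libraries, among them the pan-leukocyte *Ptprc* and the myeloid *Itgam* and *Adgre1*. The leukocyte list summed to 15.2 TPM in si*Vgll3* against 17.2 TPM in siCtrl, with 3 of 5 genes at A > 0 called higher and 1 lower. The lower sum rests on *Lyz2*, a lysozyme of myeloid cells, at 3.13 TPM against 10.9 TPM. The genes called higher were *Cd53*, a leukocyte tetraspanin, at 5.91 TPM against 0.760 TPM (M = 2.96), *Cd14* (M = 0.62) and *Csf1r* (M = 0.504, just past the threshold). *Cd53* was below 1 TPM in siCtrl and met A > 0 through the si*Vgll3* library. Of the markers without A > 0, *Fcer1g* (12 reads in si*Vgll3* against 23), *Fcgr3* (41 against 69) and *Mrc1* (13 against 34) had fewer reads there. *Cd79a* (10 against 6), *S100a8* and *Nkg7* (2 against 0 each) had more.

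The 6 mesothelial markers summed to 54.6 TPM against 64.8 TPM, with 2 called higher and 2 lower. *Krt19* stood at 16.8 TPM against 2.86 TPM and *Msln* at 5.93 TPM against 1.58 TPM, both higher in si*Vgll3*. *Upk3b*, at 9.89 TPM against 31.6 TPM, and *Wt1*, at 4.78 TPM against 7.61 TPM, were lower. The 8 endothelial markers summed to 24.0 TPM against 27.3 TPM, with 0 called higher and 1 lower (*Tek*, M = −0.54) of 4 at A > 0. The lower sum rests on *Tek*, at 13.4 TPM against 19.5 TPM. *Pecam1* and *Cdh5* were at M of 0.47 and 0.497, and *Emcn* at −0.02. With A below 0, *Cldn5* was read 94 times against 11 times and *Kdr* 146 times against 81 times. *Vwf*, at 70 reads against 108, and *Tie1*, at 124 against 138, went the other way. The 6 pericyte markers summed to 9.33 TPM against 15.7 TPM, with *Notch3* called lower (M = −0.82) and *Higd1b* at 0 reads. The lower sum rests on *Notch3*, at 7.97 TPM against 14.1 TPM. Of the pericyte markers without A > 0, *Kcnj8* (24 reads in si*Vgll3* against 0) and *Abcc9* (20 against 6) had more reads there. *Rgs5* (107 against 133) and *Cspg4* (416 against 568) had fewer. Of 8 cardiomyocyte markers, 6 were at 0 reads, and the sum of 10.4 TPM in si*Vgll3* against 60.0 TPM in siCtrl was *Tnnt2* alone. *Tnni3*, which has no TPM, went the other way, with 10 reads in si*Vgll3* against 0 in siCtrl. The part of such cells in the chemokine levels was not tested.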

How the data were processed

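RNA from 1 siCtrl and 1 si*Vgll3* culture of cardiac myofibroblasts was sequenced. The authors made TruSeq Stranded mRNA libraries, sequenced on a NovaSeq instrument, trimmed the reads with Trimmomatic, aligned them to mm10 by HISAT2 and quantified known genes with StringTie. Versions, annotation and strand setting are not given in the sources used here. The authors deposited raw read counts per gene, with no normalization, and TPM, scaled for length and depth, for 14158 genes.

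M, A and Clopper-Pearson intervals were computed from these values with SciPy 1.17.1, the interval of the count ratio being moved onto the TPM ratio. The interval code was tested on simulated data. DESeq2 1.42.0 and edgeR 4.0.16 gave scaling factors only. Nothing was added before logarithms. The intervals compare libraries, not conditions. Gene models were GENCODE vM21 on GRCm38 (mm10), taking the transcript with the longest coding sequence; promoters were RefSeq's.

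The members and lists were chosen with earlier results of these data known. By rule, every member, each other ligand or receptor with A > 0, the genes of the cluster and, per pathway list, called genes and the 2 with the highest mean TPM were named. Called marker genes were added after their values were seen. *Cxcl2* had no TPM and no M, and 1 gene taken off the interferon list is not reported here. Alternatives covered CPM and other scalings, 0.1 or 1 TPM added, filters, centring and thresholds.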

Additional observations from a re-analysis of the deposited data

Results flagged for a closer look

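*Cxcl17* was read 14 times in si*Vgll3* and had 0 reads in siCtrl, which allow for at most 3. It stands outside the TPM tables, so the comparison of levels did not use it, and it was noted because its reads exceed those of the control library.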

How the results depend on the processing

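No paired analysis was possible because siCtrl and si*Vgll3* were sequenced once each. The number of higher members was 3 under all 12 alternatives. The number of lower members was 1 in place of 2 with CPM, TMM scaling, DESeq2's size factors, A as the mean of log2 values and A > 2, since *Cxcl10* then missed the filter on A, and also 1 with a threshold of 1 on M, which *Cxcl12* did not reach. Over all genes, 1428 were higher and 2103 lower with no filter on A, 207 were higher and 384 lower with the threshold of 1, 393 were higher with A > 2, and 442 were higher when the whole interval had to lie beyond 0.5. The 6 alternatives that recompute M gave 45 values for the members, of which 34 lay within the counting interval, 11 lay beyond it and 0 changed sign. The M of *Cxcl10* ran from −3.35 to −1.58 and that of *Cxcl3* from 2.17 to 2.88, both nearest to 0 with 1 TPM added. Depth limits *Cxcl2* and *Cxcl10* most, and the intervals hold no variation between cultures.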

Other observations

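*Cxcl13*, an attractant of B cells, was read 0 times in si*Vgll3* against 17 times in siCtrl. *Cxcr6*, the receptor of CXCL16, was read 0 times against 9 times, and neither gene has a TPM.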
